A study of Homo sapiens with 6 samples.

Results

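The GALNT genes encode the polypeptide N-acetylgalactosaminyltransferases, the enzymes that begin mucin-type O-glycosylation. They were chosen by name, with earlier results of these data known. Of the 9 names, 8 (GALNT1, GALNT2, GALNT3, GALNT4, GALNT7, GALNT10, GALNT11 and GALNT14) had a row among the 12768 genes of the deposited count table. GALNT12 was not analysed here. The table holds 1 further gene of the family, GALNT18, which is described beside the 8.

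Each GALNT enzyme sits in the Golgi and moves N-acetylgalactosamine from UDP-GalNAc onto a serine or threonine of a secreted or membrane protein. The family members prefer different but overlapping peptides, and some act mainly on peptides that already carry a GalNAc nearby. Other Golgi enzymes then lengthen the single sugar into core structures and cap them with sialic acid, and truncated O-glycans are a known feature of carcinoma cells.

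RNA was sequenced from LNCaP, a human prostate cancer cell line that responds to androgen. The cells had been stably transfected with a hairpin RNA that doxycycline switches on and that targets PRMT5, the major methyltransferase for symmetric dimethylation of arginine. The knockdown group was 3 cultures given doxycycline for 4 days, and the no-knockdown group was 3 cultures of the same hairpin-carrying cells grown for 4 days without doxycycline. The study asked which genes differ after PRMT5 knockdown, and its design text calls the 3 cultures of a group biological replicates. Both groups carry the hairpin plasmid, so knockdown and doxycycline differ together and cannot be told apart. The labels do not say whether the line is a clone or a pool.

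The libraries held 7911853 to 15831938 counted reads, so that 3 reads correspond to 0.19 to 0.38 CPM (read counts scaled to library size with TMM factors). PRMT5 stood at 9.69, 10.8 and 10.6 CPM in the knockdown libraries, against 88.7, 91.96 and 82.8 CPM in the no-knockdown libraries. Each library thus lay on the side its label gives. All 12 of the luminal prostate and LNCaP markers were measured (8381 to 8457 CPM summed after knockdown, 8949 to 9568 without it), among them KLK3. Of 19 markers of basal, stromal, immune, endothelial and blood cells 8 had a row, with summed levels of 82.3 to 88.7 CPM after knockdown and 79.7 to 86.99 CPM without it. KRT5, TP63, PTPRC and PECAM1 have no row in the table. Neither list had a member past the threshold by edgeR (adjusted p of 0.14 for STEAP2 and 0.083 for COL3A1, the lowest of each, with 5 luminal and 1 other marker at an unadjusted p under 0.05). By DESeq2 STEAP2 passed and by limma-voom none did. In a fit with a term for the replicate number (the block) 6 luminal markers were lower and COL3A1 was higher. That fit called 5.1% of all genes lower and 3.21% higher. The part of these markers in the results below was not tested, and in such bulk samples fewer cells of a type and less RNA per cell cannot be told apart.

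Among the 8 GALNT genes, GALNT14 fell to 24.0% of its level without knockdown, GALNT10 fell by a smaller step and GALNT3 rose. By edgeR's quasi-likelihood test, with p-values adjusted over all 12768 genes and a threshold of 0.05, 2 of the 8 were lower and 1 was higher. The same test called 1.48% of all genes, 1.14% lower and 0.337% higher. The median log2 fold change of the 8 genes was -0.09, beside -0.0021 for all genes tested, with 6 of the 8 below 0. Groups that do not overlap were found for GALNT14, GALNT10 and GALNT3, 3 of the 8, beside 19.8% of all genes (11.6% lower and 8.22% higher after knockdown). Since the members were chosen with earlier results of these data known, these counts beside the shares of all genes are descriptions only.

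**Figure D1:**
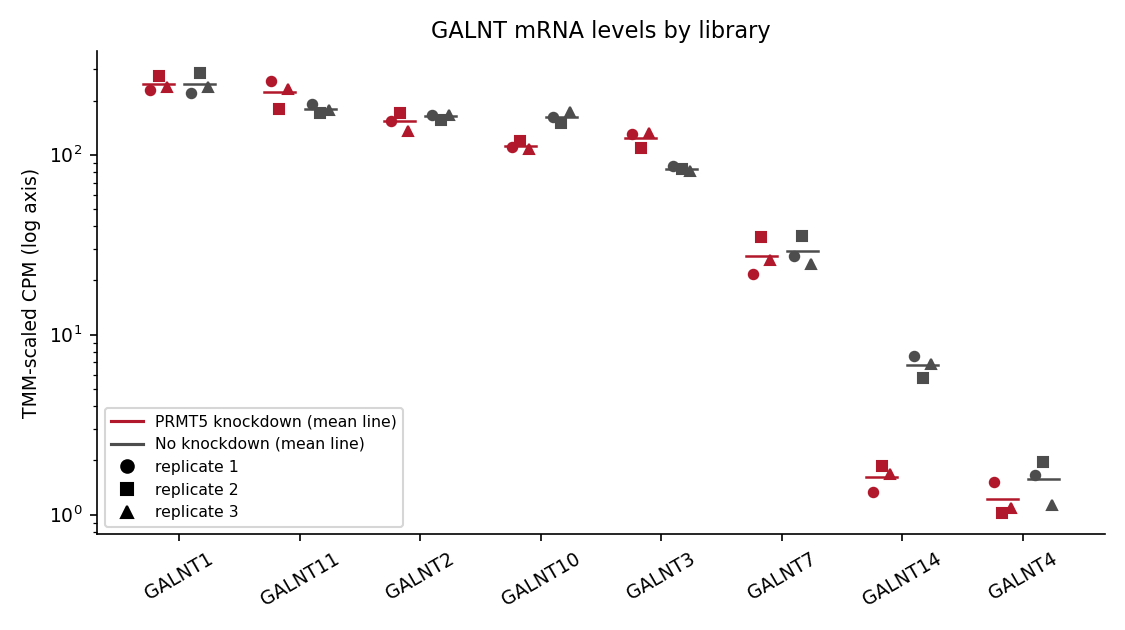
Level of each GALNT mRNA in TMM-scaled CPM on a log axis, with 1 point per library (circle, square and triangle for replicates 1, 2 and 3) and a line at the group mean, knockdown in red and left of no knockdown in grey. The groups lie apart for GALNT14, GALNT10 and GALNT3 and overlap for the other 5 genes.

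GALNT14, an enzyme that has been linked to O-glycosylation of death receptors in cancer cells, is on the minus strand of chromosome 2 (30910467 to 31155202, GENCODE 29, GRCh38). It had 14, 20 and 26 reads in the knockdown libraries, against 83, 56 and 55 reads in the no-knockdown libraries. This equals 1.33, 1.87 and 1.67 CPM after knockdown and 7.61, 5.74 and 6.90 CPM without it. The highest knockdown library thus lay well below the lowest no-knockdown library, although the knockdown counts are small (14 reads carry an exact Poisson 95% interval of 7.65 to 23.5 reads, for counting error). The means were 1.62 ± 0.27 CPM after knockdown and 6.75 ± 0.95 CPM without it (SD, n = 3 each). The fitted log2 fold change lay at -2.05 (SE 0.22, edgeR adjusted p = 0.0023), a 4.13-fold reduction with a 95% interval of 2.94 to 5.80. Among all 12768 genes, 3 had a lower log2 fold change. The call of GALNT14 held in each of the 16 other fits, with log2 fold changes from -2.25 to -1.93 and adjusted p up to 0.030. An exact two-sided permutation test of its 6 CPM values gave p = 0.1, the smallest that 3 against 3 libraries allow, and the same p was found for GALNT10 and GALNT3. The authors' deposited table lists GALNT14 at a log2 fold change of -2.05 with a false discovery rate of 8.97e-14, and of the 8 genes it also puts GALNT10 and GALNT3 under 0.05, a limit that 3.7% of its genes pass.

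The sequence TTCCCTA was looked up in the GALNT mRNAs because it occurs in the coding part of PRMT5, the mRNA the hairpin targets, and had been picked earlier from these same fold changes as going with lower values. In 1 principal GENCODE 29 mRNA per gene, 4 of the 8 members held it once, and GALNT1, GALNT3, GALNT10 and GALNT11 did not hold it. The 7 letters are in capitals below, on the mRNA strand, with the bases around them; the PRMT5 stretch is shown for comparison.
GALNT14: tcgagtcagtTTCCCTAtcggcggcag
GALNT2: gtacggtcagTTCCCTAtggtttctgt
GALNT4: aaaaaaccgaTTCCCTAattcgaattt
GALNT7: acattaggtgTTCCCTAgtgtttctta
PRMT5: tcccatcctcTTCCCTAttaagcagcc
In GALNT14 the 7 letters lie in the 5′ untranslated region (UTR) of its principal mRNA (chr2:31138432-31138438, minus strand), and 1 of its 3 basic transcripts holds them. They lie in the 3′ UTR of GALNT2 (chr1:230280092-230280098, plus strand), GALNT4 (chr12:89520010-89520016, minus strand) and GALNT7 (chr4:173322926-173322932, plus strand), and in the coding part of PRMT5 (chr14:22922181-22922187, minus strand). Of 11257 measured genes with such an mRNA, 1.15% held TTCCCTA in the 5′ UTR, 5.16% in the coding part, 10.8% in the 3′ UTR and 16.4% anywhere. Because the letters were picked from these fold changes, their presence in GALNT14 is not independent of its fall. The other holders, GALNT2, GALNT4 and GALNT7, had log2 fold changes of -0.09, -0.41 and -0.09. They were not called by edgeR with all libraries, and GALNT4 had only 9 to 19 reads per library. Members without the letters had -0.53 (GALNT10, called lower), -0.01 (GALNT1), 0.30 (GALNT11) and 0.57 (GALNT3, called higher). Whether these values have anything to do with the letters was not tested. In GALNT7, 1 of 2 basic transcripts holds them. A match of letters is a description of the mRNA and no measure of hairpin binding, which was not tested.

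GALNT10, an enzyme known to act mainly on peptides that already bear GalNAc, lies on chromosome 5 from 154190730 to 154420984, plus strand. It had 110.5, 118.6 and 107.4 CPM after knockdown, against 162.8, 149.9 and 172.9 CPM without it. All 3 knockdown libraries were below all 3 no-knockdown libraries, with means of 112.2 ± 5.77 CPM after knockdown and 161.9 ± 11.5 CPM without it (SD, n = 3 each). Its log2 fold change, -0.53 (SE 0.078, edgeR adjusted p = 0.012), left 69.3% of the level without knockdown. Its exons share 121 bases with MFAP3, a gene on the same strand with a log2 fold change of 0.03 (edgeR adjusted p = 0.91).

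GALNT3, the enzyme whose loss raises blood phosphate through the hormone FGF23, lies on chromosome 2 from 165747591 to 165794682, minus strand. It had 129.9, 109.0 and 132.3 CPM after knockdown, against 86.3, 83.1 and 80.8 CPM without it. The groups did not overlap, and the knockdown libraries varied more (123.7 ± 12.8 CPM) than the no-knockdown libraries (83.4 ± 2.74 CPM, SD, n = 3 each). GALNT3 rose with a log2 fold change of 0.57 (SE 0.088, edgeR adjusted p = 0.014), which is 1.48-fold with a 95% interval of 1.30 to 1.70. Knockdown replicate 2 had the lowest of the 3 raised values.

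In the fit with group alone, the calls of GALNT10 and GALNT3 depended on 4 of the 6 libraries. Without knockdown replicate 1, knockdown replicate 3, no-knockdown replicate 1 or no-knockdown replicate 3 the edgeR adjusted p of GALNT10 was 0.10, 0.099, 0.060 or 0.092. In the same order that of GALNT3 was 0.10, 0.099, 0.057 or 0.0997, so GALNT14 was the only member called in these 4 fits. The log2 fold changes stayed between -0.58 and -0.48 for GALNT10 and between 0.52 and 0.65 for GALNT3 over the 6 fits that each left out 1 library. Those 4 fits called 24, 30, 52 and 29 genes of the whole dataset, beside 189 with all libraries. With the block and all 6 libraries GALNT10 and GALNT3 passed (edgeR adjusted p = 3.68e-04 and 2.64e-04), in a fit that called 8.31% of all genes. The block was not used in fits that left out 1 library.

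**Figure D2:**
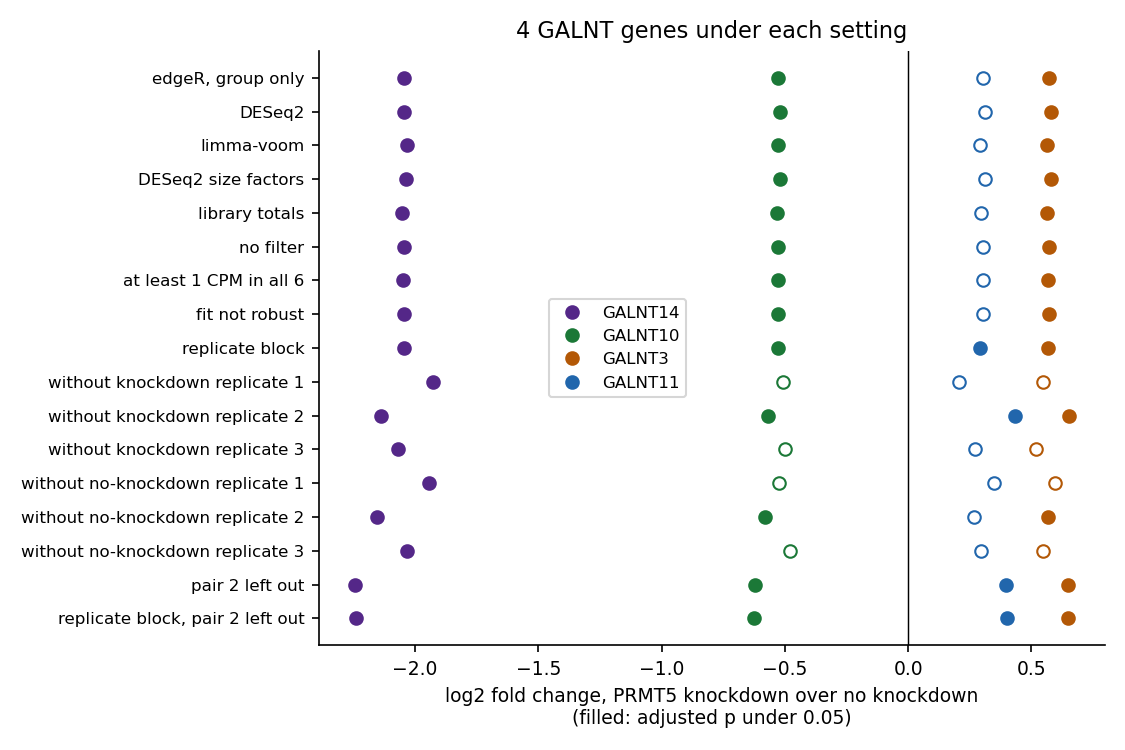
Log2 fold change (knockdown over no knockdown) of GALNT14, GALNT10, GALNT3 and GALNT11 under each of 17 fits, from top to bottom, filled where the adjusted p was under 0.05. Points of each gene stay on their side of 0, those of GALNT14 are filled throughout, and those of GALNT10 and GALNT3 are open in 4 fits that leave out 1 library.

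GALNT11, an enzyme known to glycosylate LDL receptor family proteins and NOTCH1, lies on chromosome 7 from 152025674 to 152122347, plus strand. It had 255.6, 180.0 and 232.4 CPM after knockdown, against 191.8, 171.5 and 177.9 CPM without it. Knockdown replicate 2 fell within the no-knockdown range, so the groups overlapped, while each knockdown library was above the no-knockdown library of the same number. The log2 fold change of 0.30 (SE 0.12, edgeR adjusted p = 0.29) did not pass, and it passed in the blocked fit (0.29, adjusted p = 0.019) and without knockdown replicate 2 (0.43, adjusted p = 0.023). With the block 2 of the 8 members were higher and 2 lower, beside 8.31% of all genes called (3.21% higher and 5.1% lower).

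GALNT1, GALNT2 and GALNT7 were measured well and did not pass the test. GALNT1, a broadly expressed enzyme with wide peptide use, had 227.5, 273.7 and 236.3 CPM after knockdown, against 220.4, 285.4 and 237.5 CPM without it. Its log2 fold change of -0.01 had a 95% interval of -0.25 to 0.23 (edgeR adjusted p = 0.97). GALNT2, another broadly expressed enzyme that acts on many peptides, had 153.7, 170.9 and 135.2 CPM after knockdown, against 166.7, 156.4 and 166.6 CPM without it. The groups overlapped, and its interval ran from -0.29 to 0.11 (log2 fold change -0.09, edgeR adjusted p = 0.70). GALNT2 passed when replicate 2 of both groups was left out, which was tried after the values were known (-0.21, adjusted p = 0.021). GALNT7, which follows up on peptides that already carry GalNAc, had 21.8, 34.9 and 25.8 CPM after knockdown, against 27.2, 35.4 and 24.8 CPM without it. Its log2 fold change of -0.09 had a wider interval of -0.50 to 0.33 (adjusted p = 0.87), and replicate 2 was the highest library in both groups.

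GALNT4, an enzyme with a preference for glycopeptides, was near the lower end of detection, with 16, 11 and 17 reads after knockdown and 18, 19 and 9 reads without it. This equals 1.52, 1.03 and 1.09 CPM after knockdown and 1.65, 1.95 and 1.13 CPM without it. The interval of its log2 fold change, -1.12 to 0.30 around -0.41 (edgeR adjusted p = 0.61), covers both a fall of more than 2-fold and a small rise. GALNT4 is a single-exon gene on chromosome 12, and 5033 bases of it also belong to the read-through gene POC1B-GALNT4 on the same strand. POC1B-GALNT4 has no row, and how reads that fall in both genes were counted is not known. GALNT18, the family member outside the 8, had 94.7, 74.8 and 79.9 CPM after knockdown, against 110.0, 83.2 and 101.6 CPM without it (log2 fold change -0.24, edgeR adjusted p = 0.40; blocked fit, 0.046). The groups of GALNT18 overlapped, and the knockdown library was lower in each of the 3 numbered pairs.

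**Figure D3:**
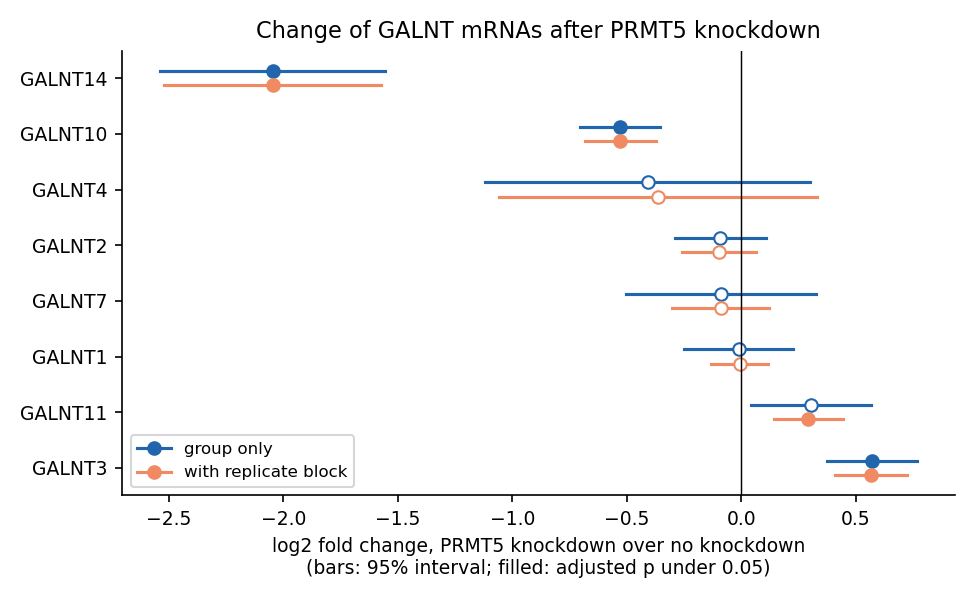
Log2 fold change (knockdown over no knockdown) of each GALNT gene with its 95% interval, not adjusted for the number of genes, from the fit with group alone (blue) and with the block (orange), filled where the adjusted p was under 0.05. GALNT14 stands at -2.05 and GALNT10 at -0.53 on the lower side, GALNT3 at 0.57 on the higher side, and the GALNT11 interval lies above 0 while its adjusted p passes in the orange fit and not in the blue one.

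Levels were set between genes as CPM per kilobase of the deposited gene model. After knockdown the order from high to low was GALNT11 (81.1), GALNT1 (64.1), GALNT3 (37.9), GALNT2 (29.4), GALNT10 (18.8), GALNT7 (6.39), GALNT14 (0.47) and GALNT4 (0.22 CPM per kilobase). Without knockdown it was GALNT11 (65.7), GALNT1 (64.6), GALNT2 (31.4), GALNT10 (27.2), GALNT3 (25.5), GALNT7 (6.77), GALNT14 (1.98) and GALNT4 (0.29 CPM per kilobase). GALNT11 and GALNT1 overlapped between libraries in both groups, as did GALNT10 and GALNT3 without knockdown, and the other neighbours in either order did not overlap. The order depends on the lengths. The deposited length of GALNT11 (2746 bases) was near its principal mRNA (2747), while its merged GENCODE 29 exons held 8295 bases. Those of GALNT1, GALNT4, GALNT7 and GALNT10 were also near their principal mRNAs. The deposited lengths of GALNT2, GALNT3 and GALNT14 (5206, 3267 and 3417) were not near theirs (4454, 3868 and 2733). With GENCODE 29 exon lengths, a choice made after the values were known, GALNT1 came first in both groups (47.96 CPM per kilobase after knockdown and 48.3 without it) and GALNT11 second (26.8 after knockdown and 21.7 without it). GALNT3 was then in the third place after knockdown (26.4) and in the fourth without it (17.8), above GALNT10 in both groups (10.7 after knockdown and 15.4 without it). With these lengths GALNT11 overlapped GALNT3 after knockdown and GALNT2 without it. The ratio of GALNT3 to GALNT10 CPM, not divided by length, was 1.18, 0.92 and 1.23 in the knockdown libraries, against 0.53, 0.55 and 0.47 in the no-knockdown libraries. This ratio, which library scaling does not touch, was picked with the values known and was not tested.

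The summed level of the 8 genes was 901.8, 890.1 and 872.2 CPM after knockdown and 864.3, 889.4 and 868.6 CPM without it (exact two-sided permutation test, p = 0.2). Per kilobase the sum was 238.4 ± 7.10 after knockdown and 223.3 ± 3.86 without it (SD, n = 3 each), with groups that did not overlap (exact permutation p = 0.1, the smallest possible). With GENCODE 29 lengths the groups overlapped, at 134.4 to 137.4 after knockdown and 127.5 to 135.3 without it (exact permutation p = 0.2). With the deposited lengths GALNT3 made up 15.9 ± 1.36% of that sum after knockdown and 11.4 ± 0.41% without it. GALNT10 made up 7.91 ± 0.59% after knockdown and 12.2 ± 1.07% without it. GALNT14 was a small part in both groups, 0.20 ± 0.04% after knockdown and 0.89 ± 0.14% without it. GALNT11 made up 33.9 ± 5.01% after knockdown and 29.4 ± 2.02% without it, and GALNT1 made up 26.9 ± 3.44% after knockdown and 28.9 ± 3.46% without it. With GENCODE 29 lengths the share of GALNT11 was 19.7 ± 3.49% after knockdown and 16.7 ± 1.43% without it, and that of GALNT1 was 35.2 ± 3.33% after knockdown and 36.99 ± 3.79% without it. GALNT3 then made up 19.4 ± 2.17% after knockdown and 13.7 ± 0.70% without it, and GALNT10 made up 7.84 ± 0.33% after knockdown and 11.9 ± 1.17% without it (SD, n = 3 each).

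**Figure D4:**
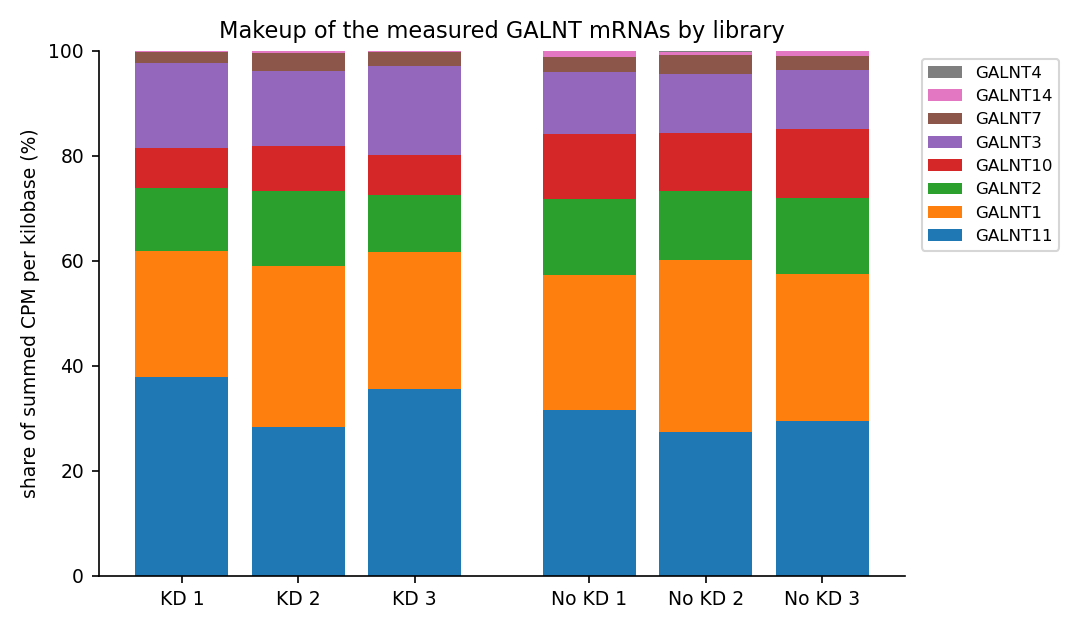
Share of each GALNT mRNA in the summed CPM per kilobase (deposited lengths) of the 8 genes, with 1 stacked bar per library and the 3 knockdown libraries on the left. GALNT3 takes 14.4 to 17.1% of the knockdown bars and 11.2 to 11.9% of the no-knockdown bars, GALNT10 takes 7.55 to 8.59% of the knockdown bars and 11.1 to 13.2% of the no-knockdown bars, and GALNT14 is a thin band near the top.

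For GALNT7 and GALNT1, replicate 2 stood apart from replicates 1 and 3 in both groups. For GALNT11 and GALNT3 it did so mainly in the knockdown cultures. Replicates 1 and 3 were not compared in the same way. On the log2 scale GALNT7 was higher in replicate 2 than in the mean of the other 2 replicates by 0.55 in knockdown and 0.44 in no-knockdown cultures, and GALNT1 by 0.24 in knockdown and 0.32 in no-knockdown cultures. GALNT11 had differences of -0.44 in knockdown and -0.11 in no-knockdown cultures. GALNT3 had -0.27 in knockdown cultures and -0.01 in no-knockdown cultures. For GALNT14 the sign differed between the groups (0.29 in knockdown and -0.33 in no-knockdown cultures), as it did for GALNT2, GALNT4 and GALNT10. A further fit left out pair 2, also tried after the values were known. Its whole no-knockdown group was replicates 1 and 3, the libraries nearest to each other of all (chi-square per degree of freedom 1.73). The number of calls in this fit is therefore no measure of the part of replicate 2. In it 5 members passed, GALNT14, GALNT10 and GALNT2 lower and GALNT3 and GALNT11 higher. That fit called 2141 of all 12768 genes (1165 lower and 976 higher), beside 189 with all libraries.

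GALNT2 shares 1029 exon bases with the antisense gene AL136988.1, GALNT14 shares 42 with AC009305.1, GALNT11 shares 154 with AC006017.1 and GALNT7 shares 98 and 394 with AC105285.1 and AC097534.1. None of these has a row in the table, and without a known strand setting their reads cannot be told apart from those of the member. The members are distant relatives at the level of sequence. Over the 28 pairs of members the coding sequences were 60.5 to 67.1% identical over aligned bases, and no pair of mRNAs shared a run of 31 bases. GALNT2 and GALNT14, which are close to each other within the family, were 65.7% identical, and GALNT2 did not pass the test.

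Genes with the most similar pattern over the 6 libraries were searched by the root mean square distance of log2 CPM centred on each gene's mean, among 11467 genes of average log2 CPM of at least 2. Nearest to GALNT14 were TMPRSS11E (distance 0.20), a transmembrane serine protease gene, SLC18B1 (0.24), a transporter gene, and TMEM44 (0.28). TMPRSS11E averaged 1.35 CPM after knockdown and 6.86 CPM without it (log2 fold change -2.32, edgeR adjusted p = 8.40e-04). Nearest to GALNT10 were FAM168A (0.026), C17orf107 (0.028) and PNMA1 (0.030), with log2 fold changes of -0.50, -0.51 and -0.49, of which FAM168A passed (adjusted p = 0.0100). Nearest to GALNT3 were DNAJB9 (0.026), a co-chaperone gene of the endoplasmic reticulum, CHD1 (0.032), a chromatin remodeler gene, and ASAP2 (0.033). All 3 passed, with log2 fold changes of 0.61, 0.52 and 0.60. These distances describe the 6 libraries and were not tested. Genes picked as near in pattern have similar fold changes by construction, so their values are no separate support for the members' calls.

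No measured gene for the steps after the first sugar was called in the edgeR fit with group alone. Only 6 of 12 listed core and extension genes and 7 of 10 listed sialyltransferase genes had a row. Of 6 measured genes for core and extension enzymes none passed by edgeR over all genes, and with the block none did either (median log2 fold change 0.03; lowest unadjusted p 0.052, for GCNT1, and 0 called by DESeq2 or limma-voom). GCNT1, which makes the core 2 branch, had 64.7 ± 6.72 CPM after knockdown and 75.96 ± 8.86 CPM without it (log2 fold change -0.23, edgeR adjusted p = 0.36), and the galactosyltransferase gene B4GALT5 had a log2 fold change of 0.16 (edgeR adjusted p = 0.53). C1GALT1, the core 1 synthase, and C1GALT1C1, its chaperone Cosmc, had log2 fold changes of 0.06 and 0.08. Of 7 sialyltransferase genes none passed by edgeR, DESeq2 or limma-voom, and 0 had an unadjusted edgeR p under 0.05 (median log2 fold change -0.03). ST3GAL1, which caps core 1 with sialic acid, had 1407, 1058 and 1346 CPM after knockdown, against 1132, 774.5 and 1097 CPM without it. Each knockdown library was above its numbered counterpart while the groups overlapped, with a log2 fold change of 0.34 (edgeR adjusted p = 0.37; blocked fit, 0.0026). ST3GAL3 had a log2 fold change of -0.23 (edgeR adjusted p = 0.40).

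Among 18 genes of nucleotide sugar supply 2 fell and none rose, with a median log2 fold change of -0.09. Of all genes, 1.14% were called lower and 0.337% higher. Both are transporter genes of the SLC35 family. SLC35D2 had 10.9 ± 1.48 CPM after knockdown and 17.5 ± 0.63 CPM without it (log2 fold change -0.69, edgeR adjusted p = 0.031), and SLC35A5 had 104.6 ± 6.88 CPM after knockdown and 141.5 ± 13.8 CPM without it (-0.44, adjusted p = 0.042; SD, n = 3 each). SLC35A5 lost its call without knockdown replicate 1 or 3 or no-knockdown replicate 1 or 3 (adjusted p of 0.25, 0.25, 0.075 and 0.17), and SLC35D2 without any library but knockdown replicate 2 (0.053 to 0.18). With the block UAP1, an enzyme of UDP-N-acetylhexosamine synthesis, was also higher (adjusted p = 0.0020), as it was by DESeq2. SLC35A5 missed the threshold by limma-voom (adjusted p = 0.051).

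Of 9 measured mucins and O-glycosylated surface proteins, SDC1 fell and none rose, beside 1.14% of all genes lower and 0.337% higher. SDC1, a proteoglycan best known for its heparan sulfate chains, had 27.8, 24.99 and 25.4 CPM after knockdown, against 52.3, 54.3 and 51.2 CPM without it. Its groups lay far apart relative to their spread (log2 fold change -1.01, SE 0.086, edgeR adjusted p = 4.33e-04). MUC20, a mucin gene, had 1.82 ± 0.76 CPM after knockdown and 1.86 ± 0.50 CPM without it (SD, n = 3 each), a low level in both groups. The median log2 fold change of the list was -0.03.

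**Figure D5:**
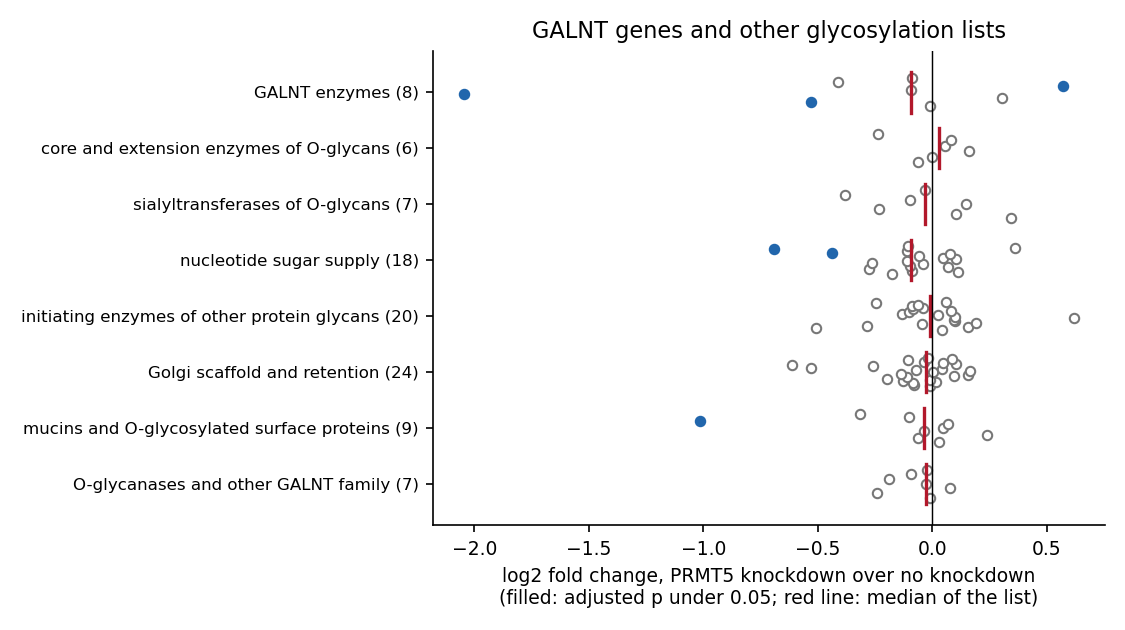
Log2 fold change (knockdown over no knockdown) of each measured gene in the GALNT family and in 7 other lists of glycosylation genes, filled where the adjusted p was under 0.05, with a red line at the median of each list and the number of measured genes in brackets. Filled points are GALNT14, GALNT10 and GALNT3 in the top row, SLC35D2 and SLC35A5 among nucleotide sugar supply, and SDC1 among surface proteins.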

How the data were processed

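The submitters' processing notes name hg38, edgeR 3.20.8, Subread 1.6.5 with featureCounts, STAR 2.5 and bcl2fastq. Per the file headers, the authors deposited raw counts per gene, log2 CPM, a log2 fold change with p-values and false discovery rates, and a gene length in bases (another column type). The sources used here do not give the annotation, the strand setting or a low-count filter. The deposited exon coordinates of 6 of the 8 members share no base with GENCODE 29 (GRCh38) exons, so positions here come from GENCODE 29 and the build of the gene models is uncertain.

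The main test was edgeR 4.0.16 under R 4.3.3 (group alone in the model, TMM, filterByExpr with minimum count 10 and total 15, robust quasi-likelihood estimation, Benjamini-Hochberg adjustment over all genes). Standard errors are the fold change (log2, no prior count) over the square root of F. Group values are mean ± SD of TMM-scaled CPM. Members, lists and tests were chosen with earlier results of these data known. Named are the members, in each list the called genes or the 2 with the smallest p, and the 3 genes nearest in pattern to each called member. Genes named outside this rule (C1GALT1, C1GALT1C1, UAP1, KDELC1, MUC20, GOLPH3, KLK3 and the markers without a row) were chosen with their values known, and a gene that the rule takes is not reported here.

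Same-numbered libraries deviated together from their group means (correlations across 11435 genes of 0.42, 0.48 and 0.20 for numbers 1, 2 and 3, each above 0.1), so the numbers were taken as pairs, although knockdown replicate 1 with no-knockdown replicate 3 (0.29) and knockdown replicate 3 with no-knockdown replicate 1 (0.21) exceeded the value of number 3, so numbers 1 and 3 are not separated. No 2 libraries agreed within sampling noise. Nearest were no-knockdown replicates 1 and 3 (chi-square per degree of freedom 1.73), followed by knockdown replicates 1 and 3 (7.02). In the fits without pair 2, no-knockdown replicates 1 and 3 are the whole no-knockdown group. Fits were tested on simulated data. Alternatives were DESeq2 1.42.0, limma-voom (limma 3.58.1), other scalings and filters, a fit that is not robust, the replicate block and leaving out libraries.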

Additional observations from a re-analysis of the deposited data

How the results depend on the processing

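GALNT14 kept its direction and its call in each alternative run. Without 1 library in turn the count of genes called over the whole table ran from 24 to 445, that of called GALNT members from 1 to 4 and that of called genes in the other 9 lists from 1 to 8, beside 189, 3 and 3 with all libraries. DESeq2 called 305 genes and 7 in the other lists, and the replicate block 1061 and 21. Leaving out pair 2, chosen after seeing the data, gave 2141 genes, 28 in the other lists and 5 members, and with the block as well 2391, 31 and 5. The log2 fold change of GALNT11 became called with the replicate block (0.29), without pair 2 (0.40) and with both (0.40), and over fits without 1 library it ran from 0.20 to 0.43. That of GALNT2 became called without pair 2 (-0.21, and -0.21 with the block). Without 1 library the range was 0.52 to 0.65 for GALNT3 and -0.58 to -0.48 for GALNT10. Near 0 the sign of GALNT1 turned without knockdown replicate 1 (0.05) or 3 (0.02), without no-knockdown replicate 2 (0.10), without pair 2 (0.021) and with the block and without pair 2 (0.019), over a range of -0.10 to 0.10 without 1 library. The sign of GALNT7 turned without knockdown replicate 1 (0.06) or no-knockdown replicate 2 (0.073), over -0.29 to 0.073. The cause was not tested. The share of GALNT14 in the summed level per kilobase differed between groups by -0.69 percentage points, and by -0.88 with GENCODE 29 exon lengths, where the lengths alone differ. The replicate block changed no other member's call. DESeq2 gave no adjusted p for GALNT4, which had 9 to 19 reads per library.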

Other observations

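The enzymes that begin other protein glycans showed no call by edgeR among 20 measured genes, at a median log2 fold change of -0.01, with 10 on each side of 0. Of these genes 4 had an unadjusted p under 0.05, and 0 were called by DESeq2 or limma-voom. STT3B, a catalytic subunit of the N-glycan oligosaccharyltransferase, had 186.6 ± 5.65 CPM after knockdown and 221.2 ± 6.05 CPM without it (SD, n = 3 each; log2 fold change -0.25, edgeR adjusted p = 0.11). ALG14, a subunit of the enzyme that adds the second sugar of the N-glycan precursor, had a log2 fold change of -0.51 (edgeR adjusted p = 0.17). With the replicate block STT3B and ALG14 were lower and KDELC1 higher, beside 5.1% of all genes lower and 3.21% higher.

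Of 24 Golgi scaffold and retention genes none passed by edgeR, and 3 were lower with the replicate block, beside 5.1% of all genes. At an unadjusted p under 0.05 there were 4, DESeq2 called 2 (GOLM1 and GOLPH3L) and limma-voom 0. GOLM1, a Golgi membrane protein gene, had 153.3 ± 19.7 CPM after knockdown and 220.8 ± 37.7 CPM without it (log2 fold change -0.53, edgeR adjusted p = 0.091; blocked fit, 1.29e-04). GOLPH3L, a paralog of the Golgi retention factor GOLPH3, had 133.1, 182.1 and 135.7 CPM after knockdown, against 197.0, 282.1 and 210.2 CPM without it (-0.61, adjusted p = 0.13; blocked fit, 1.96e-05). Both groups of GOLPH3L were highest in replicate 2, and each knockdown library was below its numbered counterpart. GOLPH3 itself had a log2 fold change of -0.26 (edgeR adjusted p = 0.29; blocked fit, 0.019). Among 7 genes of glycan breakdown and the remaining family none passed by edgeR, DESeq2 or limma-voom, and 0 had an unadjusted edgeR p under 0.05.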
